A study of Homo sapiens with 3 samples.

Results

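Heme synthesis was examined in Cal-33 cells, which grow as an established line from a human squamous carcinoma of the tongue, through 9 genes: the mitochondrial carrier SLC25A38, the enzymes ALAS1, ALAD, UROS, UROD, CPOX, PPOX and FECH, and the transporter ABCB6. They were chosen by symbol as enzymes and carriers of the pathway, and all 9 were found among the 28890 genes of the deposited table. Cells received an siRNA against p53 (sip53), an siRNA against BACH1 (siBACH1) or a control siRNA (siControl), and RNA was taken after 72 h. The labels give all 3 libraries the genotype WT and name no further allele or agent, and neither the siRNA sequences nor the number of siRNAs per target was used here. Each group is a single library (1 per group), so the differences below carry no replicate check, error or p-value, and a single transfection of a single cancer line stands behind each condition.

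Heme is an iron-holding porphyrin made in all nucleated human cells. Its synthesis starts in the mitochondrial matrix, where glycine brought in by SLC25A38 is joined to succinyl-CoA by ALAS1, passes through the cytosol with ALAD, UROS and UROD, and returns to the mitochondrion for CPOX, PPOX and FECH, the last of which inserts ferrous iron. ALAS1 catalyses the rate-limiting step outside the erythroid lineage and is repressed by heme. BACH1 is a repressor that binds heme and, when heme is plentiful, leaves its DNA sites, the best known of which control HMOX1, the enzyme that breaks heme down. The transcription factor p53 acts in the DNA damage response.

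The abundance unit was TPM, transcripts per 1000000, which is scaled per transcript length, so levels of different genes can be compared within a library. How many reads stand behind a value is unknown, so counting error cannot be stated. From 12113 to 12198 genes had at least 1 TPM per library. The 12 squamous epithelial markers, KRT5 and TP63 among them, were all above 1 TPM in every library, and summed to 11181 TPM in sip53, 7424 TPM in siBACH1 and 12122 TPM in siControl. Among markers of the erythroid lineage, ALAS2, the erythroid isoenzyme of ALAS1, GATA1, SLC4A1 and HBB were listed at 0 in all 3 libraries. Of 6 fibroblast markers 1 to 2 exceeded 1 TPM, with sums of 4.18 to 5.05 TPM. Of 8 immune and endothelial markers 2 to 3 did, with sums of 50.8 to 59.0 TPM, mostly CD68, a lysosomal protein, and CDH5. The part of these marker levels in the results below was not tested.

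The targeted BACH1 transcript stood at 4.30 TPM in siBACH1, against 19.6 TPM in sip53 and 15.2 TPM in siControl. HMOX1 was at 785 TPM in siBACH1, against 4.82 TPM in sip53 and 4.10 TPM in siControl. Both values place the library labelled siBACH1 apart from the other two. Among the other heme degradation genes, HMOX2, the constitutive heme oxygenase, and the biliverdin reductases BLVRA and BLVRB had log2 changes between -0.22 and 0.00 in siBACH1 against siControl.

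The promoter windows of the 3 heme synthesis genes that differed most between the BACH1 knockdown and the control are shown because BACH1 acts on promoters and enhancers. Each window runs from 250 bases before to 50 bases after the RefSeq transcription start on GRCh38.p14, 5′ to 3′ along the gene. ALAS1 lies at chr3:52197833-52198132 on the plus strand, FECH at chr18:57586653-57586952 on the minus strand and PPOX (the first of its 2 windows) at chr1:161166176-161166475 on the plus strand. Capitals mark matches to the motifs searched.
ALAS1: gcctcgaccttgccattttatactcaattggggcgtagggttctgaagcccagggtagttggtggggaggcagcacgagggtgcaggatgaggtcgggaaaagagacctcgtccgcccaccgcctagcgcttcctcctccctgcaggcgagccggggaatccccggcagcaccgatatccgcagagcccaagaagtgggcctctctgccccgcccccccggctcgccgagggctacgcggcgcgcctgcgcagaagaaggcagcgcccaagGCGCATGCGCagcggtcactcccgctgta
FECH: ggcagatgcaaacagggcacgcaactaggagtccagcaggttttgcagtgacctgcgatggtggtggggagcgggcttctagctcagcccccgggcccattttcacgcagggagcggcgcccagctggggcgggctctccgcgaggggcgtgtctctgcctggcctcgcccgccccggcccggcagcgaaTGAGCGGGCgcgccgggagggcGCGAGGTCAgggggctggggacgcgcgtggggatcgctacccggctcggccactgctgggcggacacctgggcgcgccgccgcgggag
PPOX: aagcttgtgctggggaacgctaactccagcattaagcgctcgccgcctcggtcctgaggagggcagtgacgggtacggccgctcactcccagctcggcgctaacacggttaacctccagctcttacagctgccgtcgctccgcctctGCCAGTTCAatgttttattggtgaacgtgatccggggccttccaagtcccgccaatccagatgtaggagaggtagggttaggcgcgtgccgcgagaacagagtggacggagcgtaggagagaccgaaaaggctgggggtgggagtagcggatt

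The motifs searched on both strands were TGACTCAGC, the core of the site bound by BACH1 or NRF2 with a small MAF partner, TGANNNNGC, the core of the antioxidant response element, which TGACTCAGC also matches, and CGCATGCGC, bound by the mitochondrial biogenesis factor NRF1. The capitals in the ALAS1 window are the overlapping matches to CGCATGCGC on both strands, together 22 to 31 bases after the start. This motif was found in 1 of the 10 windows available for 8 of the 9 genes, and in 1.92% of all 35116 RefSeq promoter windows. The FECH window held TGANNNNGC matches on opposite strands, beginning 60 and 38 bases before the start, and the PPOX window held 1, beginning 103 bases before it. TGANNNNGC was found in 6 of the 10 windows, and in 41.8% of all windows, so it is a common match. TGACTCAGC was in 0 of the 10 windows and in 0.561% of all windows. No UROS window was available for this search. These matches describe the letters of these windows and not bound sites, and sequence outside the windows was not searched.

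The members differed widely in level from each other, and their order was nearly the same in the 3 libraries. UROD, the decarboxylase that makes coproporphyrinogen, was the most abundant member in each, and CPOX, which oxidises that product, was the least abundant. UROD exceeded CPOX by 17.1-fold in sip53, 21.1-fold in siBACH1 and 24.5-fold in siControl. The summed level of the 9 genes was 183 TPM in sip53, 208 TPM in siBACH1 and 186 TPM in siControl. Without ALAS1 and FECH the sum was 135, 133 and 137 TPM in the same libraries. The pair ALAS1 and FECH made up 26.1% of the summed level in sip53, 36.2% in siBACH1 and 26.5% in siControl. ALAS1 and UROS exchanged the 2nd and 3rd places in siBACH1, as did PPOX and SLC25A38 the 7th and 8th, while the order in sip53 was that of siControl. Without replicates, neighbours in this order cannot be told apart beyond a spread; the closest were FECH and ABCB6 in sip53, at 19.99 and 19.53 TPM.

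**Figure D1:**
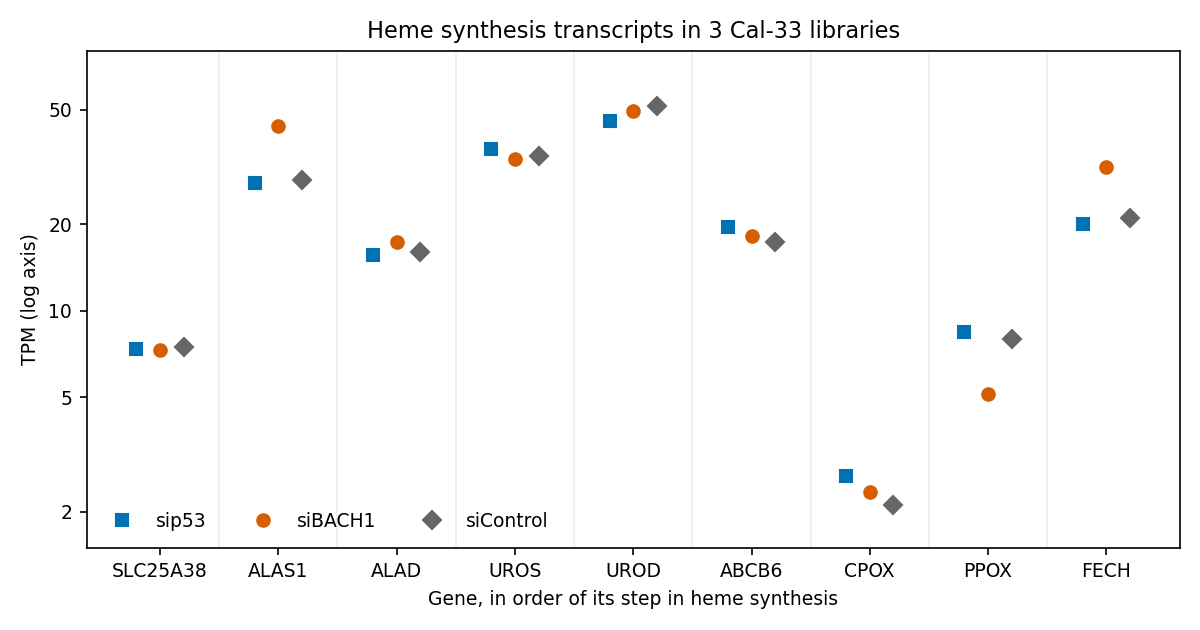
Level of each heme synthesis gene in TPM (log axis) in the sip53, siBACH1 and siControl libraries, 1 library per group, with genes in order of their step in the pathway. ALAS1 and FECH sit higher and PPOX lower in siBACH1 than in the other libraries, while the remaining genes lie close together in all 3.

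The siBACH1 library was set against siControl to see how the pathway looks when this heme-responsive repressor is lowered. The transcripts of the first and last enzymes, ALAS1 and FECH, differed by 54.8% and 50.1% and were higher in siBACH1. The transcript of PPOX, the enzyme just before FECH, differed by -35.4% and was lower in siBACH1. The other 6 genes differed by 10.9% or less. Changes were scored as log2 of the ratio of TPM + 1, which understates the change of weakly expressed genes, and genes with 1 TPM or more in either library counted as measured. All 9 genes were measured in each comparison.

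ALAS1 (chromosome 3, 52198086 to 52214327, plus strand, GENCODE v29, GRCh38) was at 44.0 TPM in siBACH1 and 28.4 TPM in siControl, a plain ratio of 1.55. Its log2 change was 0.61, and 200 of 12437 measured genes (1.61%) had a higher one. Among the 10113 genes with at least 5 TPM in either library, 65 lay above it. FECH (chromosome 18, 57548283 to 57586772, minus strand), the iron-inserting ferrochelatase, was at 31.5 TPM in siBACH1 and 21.0 TPM in siControl. Its plain ratio was 1.501 and its log2 change 0.56, with 240 measured genes (1.93%) above it, or 80 among those with at least 5 TPM. The ratio of ALAS1 to FECH was 1.40 in siBACH1, 1.39 in sip53 and 1.35 in siControl, so this pair kept nearly the same proportion in all 3 libraries.

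PPOX (chromosome 1, 161166410 to 161178013, plus strand), which oxidises protoporphyrinogen to protoporphyrin, was at 5.13 TPM in siBACH1 and 7.94 TPM in siControl. The siControl level was 1.55 times that of siBACH1, the log2 change was -0.54, and 4.45% of measured genes had a lower one. FECH exceeded PPOX by 6.13-fold in siBACH1, against 2.64-fold in siControl. GENCODE v29 places 24.3% of the exonic bases of PPOX in exons of B4GALT3, a galactosyltransferase gene on the opposite strand. B4GALT3 was at 24.1 TPM in siBACH1, 28.0 TPM in sip53 and 30.4 TPM in siControl. How strand was handled is not stated in these sources, so reads from the shared exons cannot be told apart, and the PPOX values are uncertain to that extent.

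At a threshold of 1.5-fold on the TPM + 1 scale, 1 of the 9 genes was higher, ALAS1 at 1.53-fold, and 0 were lower. FECH at 1.48-fold higher and PPOX at 1.46-fold lower fell just short. Of all measured genes, 1.78% passed this threshold upwards and 3.69% downwards, or 2.36% and 2.71% after the libraries were rescaled to a median ratio of 1. On the plain TPM ratio, chosen after seeing the data, 2 genes were higher, ALAS1 and FECH, and 1 was lower, PPOX, against 3.03% and 6.10% of all measured genes. The members' median log2 change was 0.07, against -0.08 over all measured genes, with 5 positive and 4 negative. This median was 0.15 after rescaling, which sets the median of all measured genes near 0, and 0.02 at a minimum of 5 TPM, which leaves out CPOX.

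The cytosolic enzymes showed little difference. ALAD, which forms porphobilinogen (chromosome 9, 113386317 to 113401333, minus strand), was at 17.3 TPM in siBACH1 and 16.0 TPM in siControl, a log2 change of 0.11. UROS, which closes the tetrapyrrole ring (chromosome 10, 125784980 to 125823285, minus strand), was at 33.5 TPM in siBACH1 and 34.6 TPM in siControl. UROD (chromosome 1, 45012147 to 45015575, plus strand) was at 49.2 TPM in siBACH1 and 51.6 TPM in siControl. The log2 changes of UROS and UROD were -0.04 and -0.07, and both signs turned after rescaling to a median ratio of 1.

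The carriers and CPOX also stayed near the control. SLC25A38, the glycine carrier (chromosome 3, 39383324 to 39397351, plus strand), was at 7.29 TPM in siBACH1 and 7.49 TPM in siControl. ABCB6, an ATP-driven transporter described as a porphyrin importer (chromosome 2, 219209766 to 219219017, minus strand), was at 18.1 TPM in siBACH1 and 17.3 TPM in siControl. Another protein-coding locus on the same strand shares 54.7% of the exonic bases of ABCB6 in GENCODE v29, so its level is uncertain. CPOX (chromosome 3, 98579446 to 98593723, minus strand) was at 2.34 TPM in siBACH1 and 2.11 TPM in siControl.

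**Figure D2:**
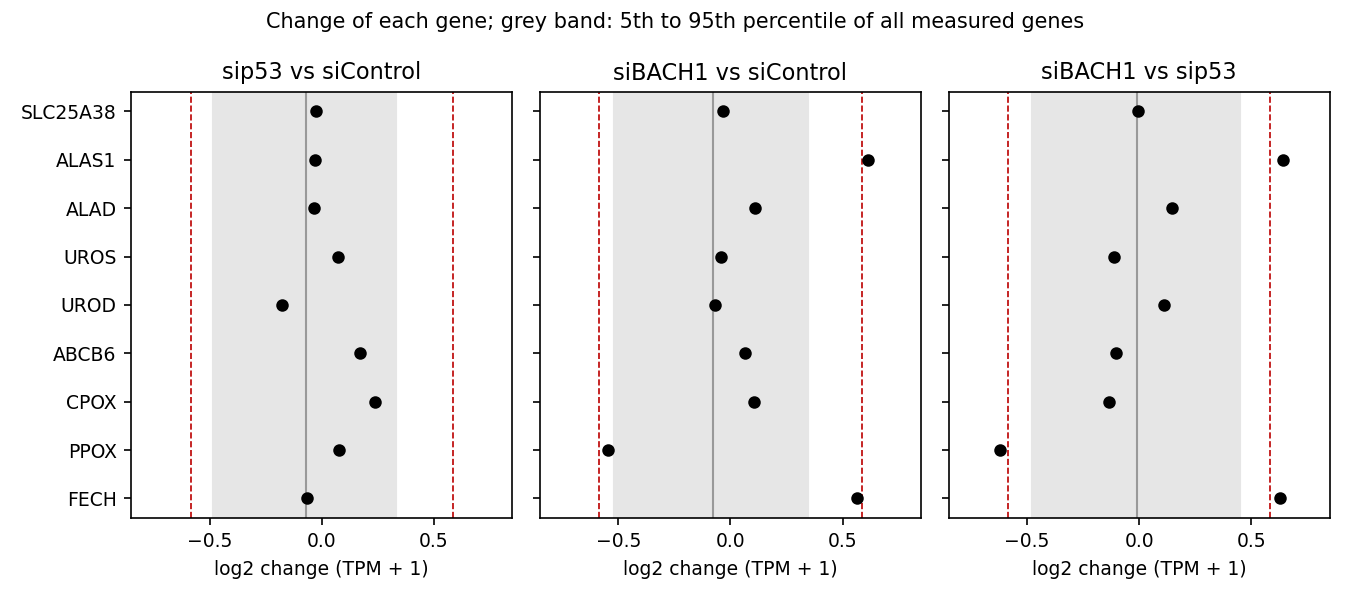
Log2 change of TPM + 1 for each gene in the 3 comparisons. The grey band spans the 5th to 95th percentile of all measured genes, the grey line their median, and dashed lines mark 1.5-fold. ALAS1, FECH and PPOX lie outside the band in both comparisons that involve siBACH1, and all 9 genes lie inside it in sip53 vs siControl.

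The sip53 library was set against siControl to see how the same transcripts look when p53 is lowered. Cal-33 is known to carry a mutant p53, which the labels do not state. Of the 9 heme synthesis transcripts, 0 passed 1.5-fold upwards and 0 downwards. The shares of the 12412 measured genes were 1.54% and 2.88%, or 1.96% and 2.13% after rescaling to a median ratio of 1. Counts of 0 among 9 genes are near these shares and are not a result about the members. All 9 lay between the 5th and 95th percentile of all measured genes, a band that holds most genes by construction. An absolute log2 change under 0.2 was seen for 8, where the quartiles of all measured genes were -0.22 and 0.07. After rescaling, ABCB6 was past 0.2 as well, at 0.24.

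The gene past 0.2 before rescaling was CPOX, at 2.67 TPM in sip53 and 2.11 TPM in siControl. Its plain ratio was 1.27 and its log2 change 0.24, from the lowest levels of the 9. UROD was the lowest in change, at 45.5 TPM in sip53 and 51.6 TPM in siControl, with a log2 change of -0.18. ABCB6 was at 19.5 TPM in sip53 and 17.3 TPM in siControl, with a log2 change of 0.17. With the GC content and length correction ABCB6 was above CPOX, at 0.26 and 0.22. The same held with a pseudocount of 5 TPM, at 0.14 and 0.11. Across 12144 genes, the change in this comparison had a Spearman correlation of -0.40 with transcript GC content. The changes of CPOX, UROD and ABCB6 were smaller in size than those of ALAS1, FECH and PPOX in siBACH1. ALAS1 was at 27.8 TPM in sip53 and 28.4 TPM in siControl. FECH was at 19.99 TPM in sip53 and 21.0 TPM in siControl. PPOX was at 8.42 TPM in sip53 and 7.94 TPM in siControl. These 3 genes, which differed most under BACH1 knockdown, had log2 changes of -0.03, -0.07 and 0.07 under p53 knockdown. ALAD was at 15.6 TPM in sip53 and 16.0 TPM in siControl. UROS was at 36.4 TPM in sip53 and 34.6 TPM in siControl. SLC25A38 was at 7.33 TPM in sip53 and 7.49 TPM in siControl. The members' median log2 change was -0.03, against -0.07 over all measured genes. After rescaling, which sets the median of all measured genes near 0, the members' median was 0.04.

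The knockdown libraries were also set against each other, a comparison that does not use the control library. ALAS1 was at 44.0 TPM in siBACH1 and 27.8 TPM in sip53, a log2 change of 0.64, with 271 of 12390 measured genes (2.19%) above it. FECH was at 31.5 TPM in siBACH1 and 19.99 TPM in sip53, a log2 change of 0.63. PPOX was at 5.13 TPM in siBACH1 and 8.42 TPM in sip53, a log2 change of -0.62, with 340 measured genes (2.74%) below it. On the TPM + 1 scale, 2 of the 9 genes passed 1.5-fold upwards and 1 downwards, against 2.84% and 3.18% of all measured genes. The other 6 genes had log2 changes between -0.14 and 0.15. This comparison and siBACH1 against siControl share the siBACH1 library, so they are not independent of each other.

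**Figure D3:**
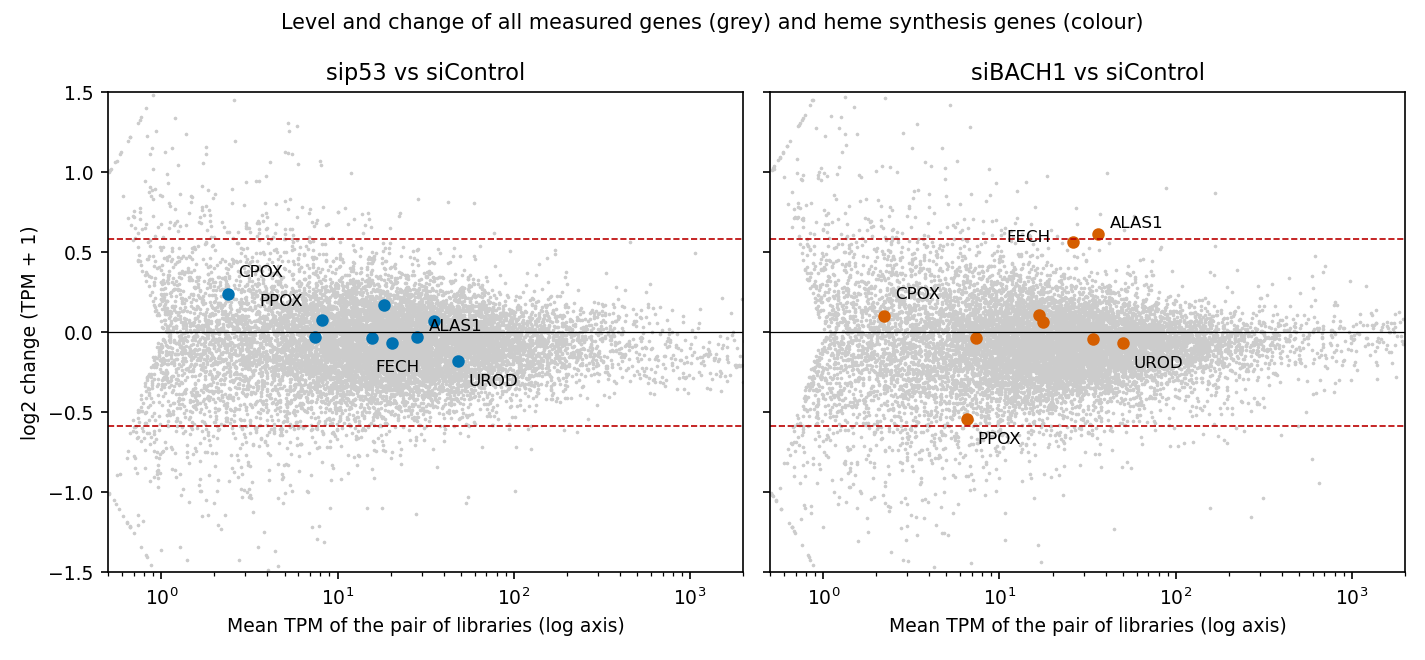
Mean TPM of the pair of libraries (log axis) against log2 change of TPM + 1 for all measured genes (grey) and the 9 heme synthesis genes (coloured, 5 of them named), for sip53 vs siControl and siBACH1 vs siControl; dashed lines mark 1.5-fold and genes beyond the limits of either axis are not drawn. ALAS1 and FECH sit at the upper edge of the genes of similar level in siBACH1 vs siControl, and all 9 genes lie inside the cloud in sip53 vs siControl.

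The level of HMOX1 beside that of ALAS1 also differed between libraries. HMOX1 stood at 17.9 times the ALAS1 level in siBACH1, 0.174 times in sip53 and 0.144 times in siControl. This sets 1 degradation gene against 1 synthesis gene. The constitutive oxygenase HMOX2 was at 83.4 TPM in siBACH1, 82.6 TPM in sip53 and 97.0 TPM in siControl, above ALAS1 in each library. For the lists of related genes, the shares of all measured genes past 1.5-fold are 1.78% higher and 3.69% lower in siBACH1 against siControl, and 1.54% higher and 2.88% lower in sip53 against siControl, so a count of 0 or 1 in a list of this length is near the background and is not a result about the list. The list for ALAS1 control and substrate supply held 12 genes. Not all 12 have these roles: SLC25A39, listed with them, is a glutathione carrier. Of the 12, 0 passed 1.5-fold in either direction in siBACH1 or in sip53 against siControl. Their median log2 change was -0.12 in both, against -0.08 over all measured genes in siBACH1 and -0.07 in sip53. The largest changes in siBACH1 were those of PPARGC1A, a coactivator known to raise ALAS1 transcription in liver, at 10.1 TPM in siBACH1 and 14.3 TPM in siControl (log2 change -0.46), and of SUCLA2, a subunit of succinyl-CoA synthetase, at 24.9 TPM in siBACH1 and 31.0 TPM in siControl (-0.31). The glutathione carrier SLC25A39 had the largest change in sip53, at 115 TPM in sip53 and 145 TPM in siControl (-0.34). The factor NRF1, whose motif is printed above for ALAS1, was at 11.1 TPM in siBACH1 and 13.6 TPM in siControl.

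Among 11 genes of mitochondrial iron and porphyrin transport, 1 was at least 1.5-fold higher in siBACH1 and 0 were lower, against 1.78% and 3.69% of all measured genes. This was ABCG2, an exporter known to carry porphyrins and many drugs, at 9.06 TPM in siBACH1, 6.61 TPM in sip53 and 5.16 TPM in siControl. Its log2 changes from siControl were 0.71 in siBACH1 and 0.31 in sip53. The list's median was -0.02 in siBACH1, against -0.08 over all measured genes, and 0.00 in sip53, against -0.07, where 0 passed 1.5-fold. The heme exporter FLVCR1 was at 6.70 TPM in siBACH1 and 8.58 TPM in siControl (-0.31). TSPO, an outer-membrane protein that binds porphyrins, was at 93.9 TPM in sip53 and 120 TPM in siControl (-0.35).

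The list for iron-sulfur cluster assembly held 16 genes, and human FECH holds such a cluster. Not all 16 build clusters: IREB2, listed with them, is an iron-regulatory protein. Of the 16, 0 passed 1.5-fold in either knockdown. Of all measured genes, 1.78% and 3.69% passed upwards and downwards in siBACH1 and 1.54% and 2.88% in sip53. The list's median was -0.09 in siBACH1, against -0.08 over all measured genes, and -0.11 in sip53, against -0.07. The list's largest changes were in sip53. LYRM4, a partner of the sulfur donor NFS1, was at 14.1 TPM in sip53 and 19.4 TPM in siControl (-0.43). IREB2, an iron-regulatory protein, was at 22.0 TPM in sip53 and 29.05 TPM in siControl (-0.39), and the reductase FDXR at 12.6 TPM in sip53 and 16.3 TPM in siControl (-0.35). Among 15 heme-using and heme-sensing genes, 0 passed 1.5-fold in either knockdown, against the same shares of all measured genes. Their median was -0.08 in siBACH1, as over all measured genes, and -0.10 in sip53, against -0.07. NR1D1, a nuclear receptor whose ligand is heme, was at 10.1 TPM in siBACH1, 14.6 TPM in sip53 and 14.7 TPM in siControl, a log2 change of -0.50 in siBACH1 against siControl. CYC1, the cytochrome subunit of respiratory complex III, was at 220 TPM in sip53 and 278 TPM in siControl (-0.34), and DGCR8, a heme-binding microRNA processing factor, at 10.7 TPM in sip53 and 13.8 TPM in siControl (-0.33).

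**Figure D4:**
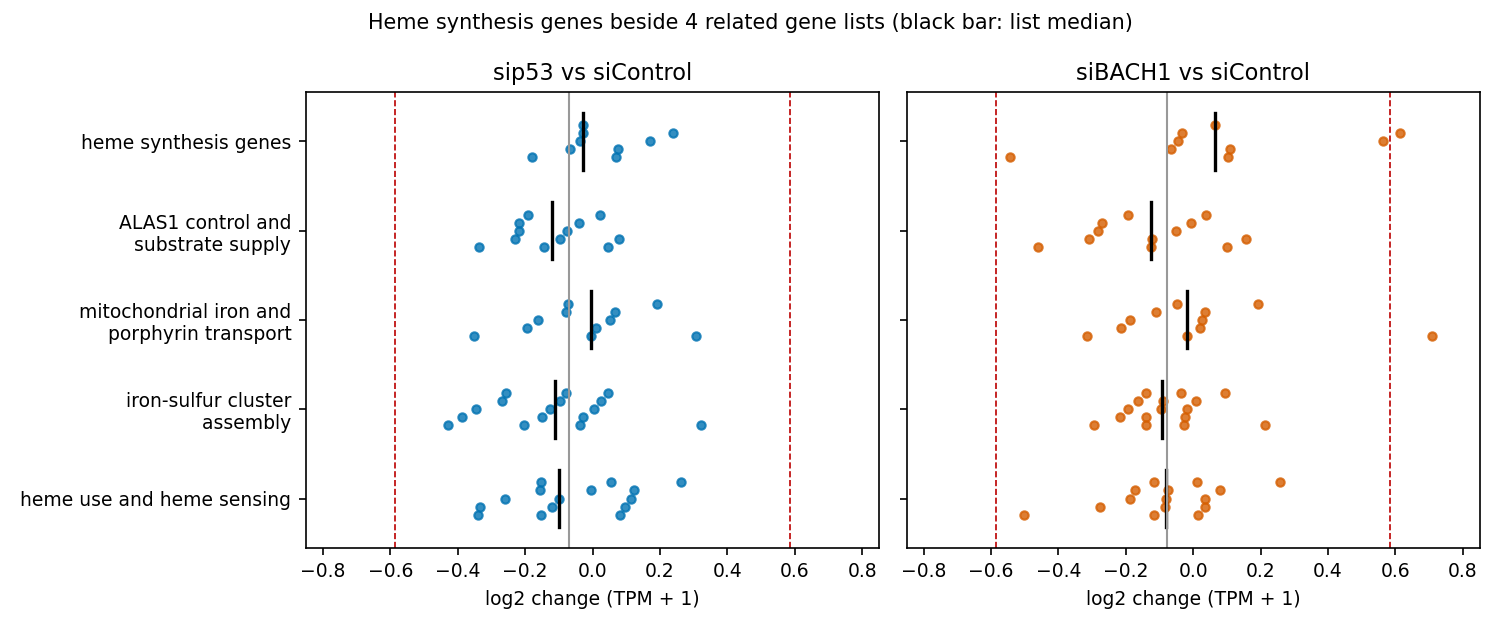
Log2 change of TPM + 1 of each gene in sip53 vs siControl and siBACH1 vs siControl, for the heme synthesis genes and 4 lists of related genes; black bars are list medians, the grey line is the median of all measured genes, and dashed lines mark 1.5-fold. ALAS1 (0.61), ABCG2 (0.71), FECH (0.56) and PPOX (-0.54) are the points farthest from 0 in siBACH1.

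The genes whose pair of log2 changes from siControl lay nearest to that of ALAS1 were FAS, a death receptor, SGSH, a lysosomal sulfatase, and TMPRSS13, a membrane serine protease, at distances of 0.04, 0.06 and 0.06 in log2 units among 9856 protein-coding genes with at least 5 TPM in a library. FAS was at 19.7 TPM in sip53, 30.1 TPM in siBACH1 and 19.8 TPM in siControl. Within 0.1 of ALAS1 lay 10 genes, the member FECH among them, with log2 changes of -0.07 in sip53 and 0.56 in siBACH1. ALAS1 was taken as the member with the largest change in siBACH1 against siControl. Few genes lie at such a change, as 1.61% of measured genes had a higher one, so few neighbours follow from that choice. For CPOX, the member with the largest change in sip53, 323 genes lay within 0.1, and the nearest were CDKN1B, FANCM and APPBP2. Likeness here rests on 3 libraries and a shared control.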

How the data were processed

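RNA sequencing of Cal-33 cells gave 3 libraries, 1 per group, grouped by their titles. The authors deposited 1 table of TPM with a column per library, summing to between 978371 and 979148 of 1000000. Per the submitters' processing notes, bcl2fastq 2.20 and kallisto 0.44.0 were used, and GRCh38, GRCm38 and mm10 were named without roles. The sources used here do not give the transcript annotation, how transcripts were summed to genes or how strand was handled. TPM keeps no depth.

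Pairs of libraries were set against each other as log2 of (TPM + 1.0) over (TPM + 1.0) in Python 3.11.15 with pandas 2.3.3, for genes at 1.0 TPM or more in either library, and genes were counted at 1.5-fold. With 1 library per group there is no test. Locations and exon overlaps came from GENCODE 29 (GRCh38), promoter windows from RefSeq (GRCh38.p14). Alternatives were pseudocounts of 0.1 and 5 TPM, no filter or 5 TPM, rescaling to a median ratio of 1 (factors 0.949 for sip53 and 0.943 for siBACH1), removal of 13 mitochondrially encoded and 89 ribosomal protein genes, a lowess correction for transcript GC content and length (statsmodels 0.14.6, tested on simulated data), thresholds of 25% and 2-fold, summing with listed pseudogene copies, and, added after seeing the data, no pseudocount. A log2 value counted as moved where it shifted by more than 1.5-fold.

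Named genes were the 9 members, BACH1, the heme degradation genes, the 3 nearest genes of a pair of members and, per related list, members past 1.5-fold or otherwise the 3 with the largest change. NRF1, COX10, COX15, HCCS, FLVCR1, TSPO, B4GALT3 and the marker genes named fall outside this rule and were chosen after their values were seen. The members and lists were chosen with earlier results of these data known. Some genes are not reported here.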

Additional observations from a re-analysis of the deposited data

How the results depend on the processing

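In siBACH1 against siControl, ALAS1 had log2 changes of 0.55 to 0.70, FECH of 0.49 to 0.65 and PPOX of -0.63 to -0.35 over 9 alternatives. The sign was the same in each. Of these 9, no filter, a minimum of 5 TPM and summed copies returned the values of the report and could not do otherwise. The count of genes at least 1.5-fold higher in siBACH1 against siControl was 1 in the report. It was 0 with a pseudocount of 5 TPM and at a fold of 2, where 0.330% and 0.611% of all measured genes passed upwards. It was 2 after rescaling to a median ratio of 1 (2.36% of all measured genes), without mitochondrially encoded and ribosomal protein genes (3.35%), at a 25% threshold (5.53%) and with no pseudocount (3.03%). The count of lower genes, 0 in the report, was 1 with a pseudocount of 0.1 TPM (5.98%), at a 25% threshold (14.2%) and with no pseudocount (6.10%). ALAS1 was the gene lost from the higher count, FECH the one added to it, and PPOX the one added to the lower count. In siBACH1 against sip53 the counts of 2 higher and 1 lower were both 0 with a pseudocount of 5 TPM (0.597% and 0.847% of all measured genes) and at a fold of 2 (0.783% and 0.759%). In sip53 against siControl the counts stayed at 0 in every alternative, the 25% threshold (5.24% and 13.3%) and the 2-fold threshold (0.395% and 0.572%) included. Both of these thresholds were applied on the TPM + 1 scale. On the plain TPM ratio CPOX, at 1.27, was past 25%. Of 240 recomputed member values, 0 moved by more than 1.5-fold, and 18 had the other sign, all from values of 0.07 or less in absolute log2. Part of the 240 come from settings that cannot alter a gene's own value: no filter, a minimum of 5 TPM and summed copies. A shift of 1.5-fold is also nearly as large as the largest member change, 1.56-fold for ALAS1 in siBACH1 against sip53. The count of 0 moved therefore says little about stability. The median of the 9 genes in sip53 against siControl, -0.03 in the report, was 0.04 after rescaling, without mitochondrially encoded and ribosomal protein genes and with the GC content and length correction. In siBACH1 against sip53 it was -0.01 in the report, 0.00 after the first pair of these, and 0.05 at a minimum of 5 TPM, which leaves out CPOX. FECHP1 and SLC25A38P1, the listed copies, were at 0 in all libraries, so summing them changed no value. No paired analysis was possible because each group has 1 library and the labels give no replicate numbers. The unknown depth limits CPOX and PPOX most, as the members with the fewest TPM in siBACH1.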

Other observations

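COX15, which makes heme A for cytochrome c oxidase, was at 36.2 TPM in siBACH1, 28.1 TPM in sip53 and 30.1 TPM in siControl, named after its value was seen. Its log2 change of 0.26 in siBACH1 against siControl was the highest among the 15 heme-using and heme-sensing genes. COX10, which acts just before COX15, was at 17.0 TPM in siBACH1, 15.0 TPM in sip53 and 16.8 TPM in siControl, and HCCS, which attaches heme to cytochrome c, at 39.5 TPM in siBACH1, 41.8 TPM in sip53 and 38.5 TPM in siControl.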
